A study of Mus musculus with 4 samples.

Results

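The sterol gene group holds 30 mouse genes, chosen by name: 18 enzymes that make cholesterol, 5 genes of the SREBP control system, 4 that move or esterify cholesterol inside the cell and 3 of the LXR and efflux arm. A gene was found through the probe sets that the array annotation gives to its symbol and to no other. By this rule 26 of the 30 genes had at least 1 probe set, out of 12394 genes in the table, and they had 49 probe sets in all. Acat2, Insig1, Soat1 and Nr1h2 were not analysed here. Values on all 4 arrays were present for 36 of the 49 probe sets, which cover 23 genes. The other 13 probe sets had values at date 2 alone. Hmgcs1, Pmvk and Scap were seen through such probe sets only. After dim probe sets were set aside (a mean intensity under 101), 32 probe sets for 22 of the 30 genes were tested, and Abcg1 was the gene with values on all arrays that was too dim.

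The cells were YAMC, an epithelial line from the colon of young adult mice that is conditionally immortalised. The control group had no treatment, and the treated group was kept for 16 h in medium conditioned by Lactobacillus GG, abbreviated LGG, a probiotic strain. Each group had 2 arrays of type 430A, and the titles give each group 1 array at each of the same 2 dates, written here as date 1 and date 2. YAMC is 1 cell line, and the labels name no control medium, no culture temperature and no separate cultures, so the p-values measure the spread between these arrays, which may be technical.

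Animal cells build cholesterol from acetyl-CoA through mevalonate, squalene and lanosterol. When membrane cholesterol of the endoplasmic reticulum falls, SCAP carries the SREBP proteins to the Golgi, where they are cut into transcription factors that raise the genes of synthesis and uptake. INSIG proteins hold SCAP back when sterols are plentiful, and oxysterols then act on the LXR receptors, which raise the efflux pumps ABCA1 and ABCG1. Colon epithelium renews itself quickly and needs sterol for new membranes.

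The epithelial label was set against marker genes. Of 11 epithelial markers, 3 were above the filter on dim probe sets, the keratin genes Krt8, Krt18 and Krt19, and the other 8, among them Cdh1, Epcam, Vil1, Cdx1 and Cdx2, measured at most 93.5 on any array. The summed intensity of the epithelial markers was 2333 to 3213 on the untreated and 2856 to 3369 on the treated arrays. The keratins in this sum did not move alike. Krt19 measured 868.2 and 1153.4 untreated against 577.9 and 615.2 treated. Krt18 measured 834.8 and 1319.0 against 1966.8 and 1431.1, and Krt8 431.0 and 653.3 against 614.8 and 639.4. Mesenchymal markers, with 6 of 9 above the filter, summed to 32367 to 37609 on the untreated and 27102 to 29481 on the treated arrays. Of the 6, 4 had both treated arrays below both untreated ones, as had 22.3% of all genes, and 2 overlapped. Dcn, among the 4, measured 7734.1 and 8376.2 untreated against 4084.9 and 4473.8 treated. Col1a1, which overlapped, measured 10156.3 and 6568.6 against 9138.6 and 6915.8, and Acta2, which also did, 4916.5 and 4515.1 against 5041.6 and 4254.6. The part of mesenchymal markers in the results below was not tested. Leukocyte markers, with 2 of 7 above the filter, summed to 548 to 752 and 697 to 806, with Ptprc at most 37.2. Of those above the filter, Cd68 measured 146.0 and 101.2 untreated against 274.1 and 289.0 treated, and Csf1r 278.0 and 182.1 against 182.4 and 230.5, while Lyz2, under the filter, measured 116.7 and 146.9 against 98.0 and 14.7. For Gapdh the 3'/5' signal ratio, a sign of RNA integrity, was 0.805 and 0.784 on the untreated arrays of dates 1 and 2 and 0.931 and 0.768 on the treated ones. The trimmed mean intensity of an array lay between 500.1 and 513.5, and having 2 arrays a group limits how precise any value can be.

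Dhcr7, Msmo1 and Cyp51 had probe sets that passed as higher, and Abca1 passed as lower. The Hmgcs1 promoter window held a match to the core of a sterol regulatory element. Sequences around the transcription start are shown for these 5 genes. Each runs 5' to 3' on the gene's own strand, from 250 bases before to 50 after the start, as RefSeq gives it for mouse build GRCm38.p6. Capitals mark matches, on either strand, to 4 motifs: TCACNCCAC, the core of a sterol regulatory element, CCAAT, the box bound by NF-Y, GGGCGG, the GC box bound by Sp1, and CACGTG, the E box. The matches in a window did not overlap one another.
Dhcr7, chr7:143822917-143823216, plus strand: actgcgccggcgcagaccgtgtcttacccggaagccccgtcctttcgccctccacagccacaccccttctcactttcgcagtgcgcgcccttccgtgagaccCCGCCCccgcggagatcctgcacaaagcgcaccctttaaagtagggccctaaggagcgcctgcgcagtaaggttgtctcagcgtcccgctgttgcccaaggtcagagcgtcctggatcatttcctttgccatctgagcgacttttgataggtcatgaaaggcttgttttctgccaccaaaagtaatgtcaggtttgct
Msmo1, chr8:64733529-64733828, minus strand: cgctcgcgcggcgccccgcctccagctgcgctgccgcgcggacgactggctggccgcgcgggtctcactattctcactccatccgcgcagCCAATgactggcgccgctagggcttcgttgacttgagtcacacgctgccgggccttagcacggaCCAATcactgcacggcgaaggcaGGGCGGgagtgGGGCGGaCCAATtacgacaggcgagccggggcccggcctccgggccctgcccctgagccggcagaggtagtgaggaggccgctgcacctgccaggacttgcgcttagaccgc
Cyp51, chr5:4104648-4104947, minus strand: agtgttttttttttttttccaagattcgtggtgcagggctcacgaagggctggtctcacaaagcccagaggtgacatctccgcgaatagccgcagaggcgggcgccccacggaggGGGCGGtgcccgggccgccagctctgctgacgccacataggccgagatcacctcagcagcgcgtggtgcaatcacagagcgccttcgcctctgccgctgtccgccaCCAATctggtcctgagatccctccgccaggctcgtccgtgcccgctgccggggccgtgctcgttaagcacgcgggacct
Hmgcs1, chr13:119690101-119690400, plus strand: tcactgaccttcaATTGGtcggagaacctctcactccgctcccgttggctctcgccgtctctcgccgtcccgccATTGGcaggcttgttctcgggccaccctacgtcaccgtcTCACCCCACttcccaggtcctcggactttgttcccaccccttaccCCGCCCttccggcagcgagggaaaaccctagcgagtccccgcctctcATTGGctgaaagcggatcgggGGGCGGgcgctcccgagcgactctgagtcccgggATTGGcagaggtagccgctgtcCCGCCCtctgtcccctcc
Abca1, chr4:53159846-53160145, minus strand: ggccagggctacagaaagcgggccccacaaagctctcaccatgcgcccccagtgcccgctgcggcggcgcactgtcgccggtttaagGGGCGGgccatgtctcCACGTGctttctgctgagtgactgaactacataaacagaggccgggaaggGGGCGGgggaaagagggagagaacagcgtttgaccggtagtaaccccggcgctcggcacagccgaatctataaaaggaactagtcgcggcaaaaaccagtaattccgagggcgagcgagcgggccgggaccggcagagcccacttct

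In the Hmgcs1 window TCACNCCAC starts at position -137 relative to the transcription start, and 4 CCAAT boxes and 3 GC boxes lie around it. The Msmo1 window holds 3 CCAAT boxes, with 2 GC boxes between the nearer pair. Cyp51 has 1 CCAAT box and 1 GC box. The Dhcr7 window holds 1 GC box. Of 2 further start sites of Dhcr7 that are not printed, 1 has 2 CCAAT boxes and 3 GC boxes and the other has 1 E box. Abca1 has 2 GC boxes, 1 E box and no CCAAT box. Promoters were found for 24 of the 30 genes, in 32 windows. These genes include Acat2, Insig1, Soat1 and Nr1h2, which were not analysed on the arrays. No window was found for Fdps, Fdft1, Sqle, Npc1, Stard4 and Abcg1. TCACNCCAC was in 1 of the 32 windows and in 1.24% of all 32851 mouse promoter windows, CCAAT in 21 against 37.4%, GGGCGG in 26 against 35.7% and CACGTG in 7 against 7.15%. Windows of 1 gene can overlap, and the 2 windows of Scap share 1 CACGTG that is counted in each. Counted by gene, of 24, TCACNCCAC was in 1, CCAAT in 20, GGGCGG in 22 and CACGTG in 6, while the percentages are by window. Such a match is a run of letters and says nothing of binding. Sites with other letters, or outside these windows, were not looked for.

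After LGG conditioned medium, 2 of the 22 sterol genes tested rose, 1 fell and 19 did not pass. Dhcr7, the last enzyme of cholesterol synthesis, rose 3.15-fold on the scale log2(intensity + 25.2), which is used for every ratio and understates changes of dim genes, and Msmo1, which removes methyl groups from sterol intermediates, rose 1.97-fold. Abca1, the pump that loads cholesterol onto apolipoprotein A-I, fell 2.26-fold. Over all 6952 genes tested, 6.5% passed, 3.01% as higher and 3.5% as lower, against 3 of 22 here (limma, date as a block; p adjusted over the whole table, threshold 0.05). By probe set, 3 rose and 1 fell of 32, with a background of 6.55%. The median log2 change of the 22 genes was 0.17, against 0.03 over all genes. At an unadjusted p under 0.05 (limma) there were 9 of the 22, against 1414 of all 6952 genes. Without date as a block 0.877% of all genes passed and Dhcr7 alone of the 22. The 3 calls were lost when dim probe sets were kept in (adjusted p = 0.0818 for Dhcr7, 0.102 for Msmo1 and 0.111 for Abca1), as they were without untreated replicate 1 or 2, and the median of the 22 genes was -0.01 without untreated replicate 1. A refit with 1 array left out has no date block, so part of the difference between the dates enters its log2 changes. In the fit with the block each gene brought 1 residual degree of freedom to 12.5 pooled over genes, so its SE and p rest mostly on the spread of other genes.

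**Figure D1:**
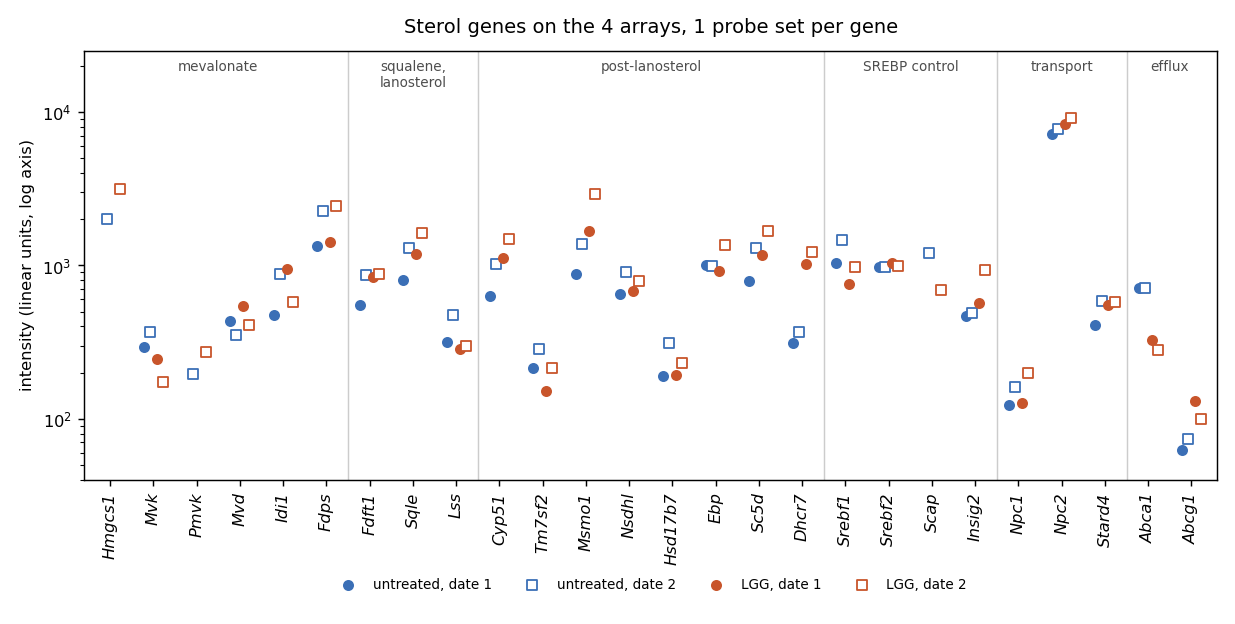
Intensity of 1 probe set per sterol gene on each array (log axis), in pathway order, blue for untreated and orange for LGG, filled circles for date 1 and open squares for date 2. Dhcr7 and Abca1 show treated arrays apart from untreated ones, while for many enzymes the squares of date 2 stand above the circles of date 1 in both groups; Hmgcs1, Pmvk and Scap have date 2 alone.

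Within each date, 12 of the 22 genes were higher with treatment at both dates, 5 were lower at both and 5 changed sign. The background was 35.1% of all genes higher and 30.2% lower at both dates. Both treated arrays exceeded both untreated arrays for 6 genes and lay below them for 5, with backgrounds of 26.2% and 22.3%. Dhcr7 was at least 2-fold higher at both dates, as were 0.676% of all genes, and Abca1 at least 2-fold lower at both, as were 1.02%.

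**Figure D2:**
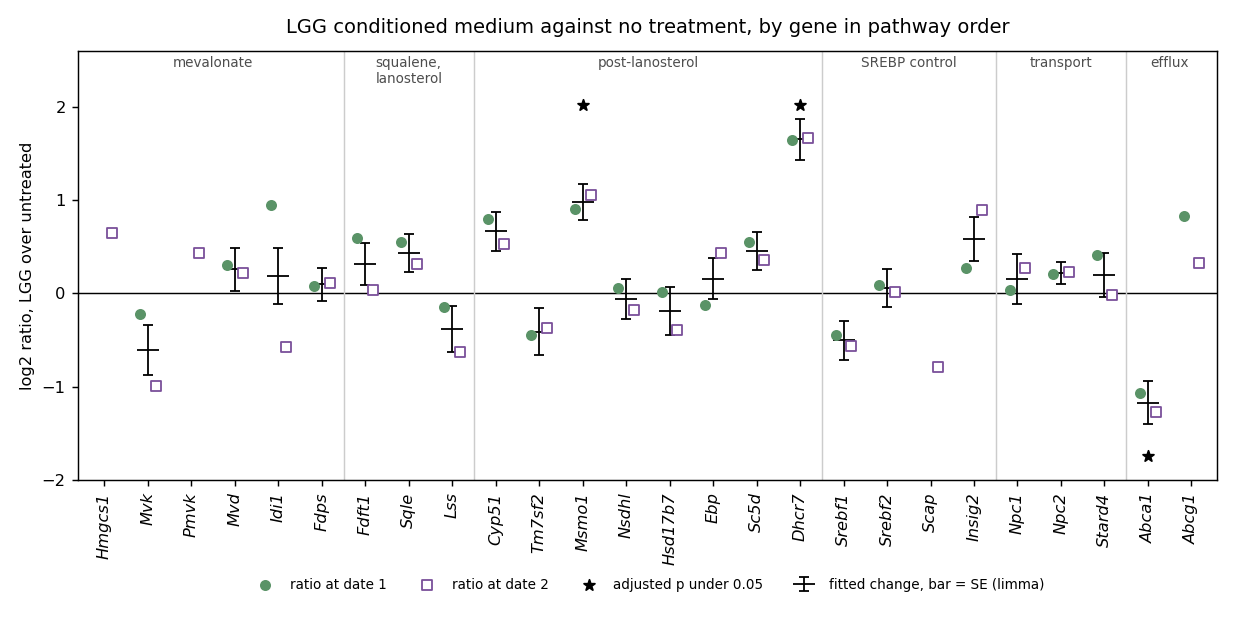
Log2 ratio of LGG over untreated for each sterol gene, at date 1 (circles), at date 2 (squares) and as fitted over both dates (bars, SE from limma); stars mark an adjusted p under 0.05. Dhcr7 (1.66), Msmo1 (0.98) and Abca1 (-1.17) carry stars, and the circle and square of Idi1 lie on opposite sides of 0.

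The mevalonate arm was measured through 6 of its 7 enzymes, and 0 of the 4 tested passed (limma; 1 at an unadjusted p under 0.05, Mvk). Hmgcs1, the cytosolic synthase that makes HMG-CoA, had no value at date 1. At date 2 its brightest probe set measured 2017.6 untreated and 3168.4 treated, and all 4 of its probe sets were higher with treatment, with log2 ratios of 0.47 to 0.71. With 1 array a group this has no replicate check. Mvk, mevalonate kinase, measured 292.2 and 370.2 on the untreated arrays of dates 1 and 2 and 247.1 and 173.5 on the treated arrays. Both treated values lay under both untreated ones, but by little at date 1 (log2 ratios of -0.22 and -0.99), and the fitted change was -0.61 ± 0.27 (SE; adjusted p = 0.22). The second Mvk probe set, with date 2 only, had a log2 ratio of -0.57.

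Pmvk, which adds the next phosphate, measured 196.0 untreated and 273.4 treated at date 2. Mvd, the decarboxylase that forms isopentenyl diphosphate, measured 436.6 and 350.1 untreated and 545.4 and 410.6 treated, with overlapping groups and a log2 change of 0.26 ± 0.23 (adjusted p = 0.581). Its other probe set gave 0.23. Idi1, the isomerase that supplies dimethylallyl diphosphate, changed sign between the dates. It measured 476.3 untreated and 945.8 treated at date 1, and 878.2 untreated and 581.9 treated at date 2. The log2 ratio was 0.95 at date 1 and -0.57 at date 2, and the second probe set of Idi1 had 0.83 and -0.80, so both probe sets carried the reversal. Fdps, which makes farnesyl diphosphate, the branch point to sterols and prenyl groups, measured 1347.6 and 2269.9 untreated and 1426.1 and 2454.5 treated. Its groups overlapped and the log2 change was 0.10 ± 0.18 (adjusted p = 0.826).

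Of the 3 enzymes from squalene to lanosterol 0 passed (limma; Sqle at an unadjusted p under 0.05). Fdft1, squalene synthase, measured 552.1 and 861.4 untreated and 844.3 and 883.6 treated, with overlapping groups and a log2 change of 0.31 ± 0.23 (adjusted p = 0.486) that was 0.00 without untreated replicate 1. Its other sets had values at date 2 alone, with a log2 ratio of 0.22 for the one above the filter. Sqle, squalene epoxidase, a rate-limiting step, measured 804.8 and 1292.8 untreated and 1189.6 and 1620.2 treated. The treated value was the higher one at each date, yet the groups overlapped, because the untreated array of date 2 exceeded the treated array of date 1. Its log2 change was 0.43 ± 0.20 (adjusted p = 0.243), and 0.10 to 0.77 with 1 array left out, lowest without untreated replicate 1. Lss, which closes squalene epoxide into lanosterol, had the opposite sign, with 316.0 and 473.8 untreated against 283.7 and 298.0 treated (log2 change -0.39 ± 0.25, adjusted p = 0.424). Both treated values of Lss were under both untreated ones. That probe set has the suffix of sets that can match several transcripts, and a dimmer set of Lss had log2 ratios of 0.48 and -0.51 at dates 1 and 2.

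Both enzyme genes that rose lie after lanosterol, an arm with 8 genes tested, against 4 for mevalonate and 3 for squalene. Of the 8, 2 passed as higher and 0 as lower (limma), against 3.01% and 3.5% of all 6952 genes. At an unadjusted p under 0.05 (limma) there were 4 of the 8, against 1414 of all 6952 genes. The values of this arm ranged from a log2 change of -0.41 to 1.66, with a median of 0.31, so its enzymes did not move alike. Cyp51, the demethylase that acts on lanosterol first, was measured by 3 probe sets, all with higher treated values at both dates. The brightest measured 634.8 and 1020.6 untreated and 1126.0 and 1486.6 treated, a log2 change of 0.67 ± 0.21 that did not pass (adjusted p = 0.0766). The next passed, with 147.0 and 277.1 untreated and 353.9 and 474.8 treated (0.93 ± 0.25, adjusted p = 0.0411), but it lost the call with arrays scaled to a common median (adjusted p = 0.0582), under a filter of 50% of the trimmed mean (0.0542), with dim sets kept in (0.194), without date as a block (0.219) and with any 1 array left out (0.0991 to 0.872). In both sets each treated array exceeded each untreated one. The dimmest was not tested and had log2 ratios of 0.15 and 0.08. With the probe sets of a gene averaged, Cyp51 passed (limma; 0.80, adjusted p = 0.00346), but so did 948 genes in the whole table, against 452 in the main fit. Dhcr7, with 1 set and the same log2 change of 1.66, went from an adjusted p of 0.000841 to 1.6e-11 (limma). The adjusted p-values of these settings are thus not comparable. Without untreated replicate 1 the brightest set of Cyp51 gave 0.34.

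Tm7sf2, a reductase that follows Cyp51, measured 215.8 and 286.4 untreated and 151.4 and 215.4 treated, a log2 change of -0.41 ± 0.25 (adjusted p = 0.402) with the treated values below the untreated ones, the nearest pair by under 1 unit. Msmo1, the next oxidase, measured 882.4 and 1384.4 untreated and 1674.3 and 2906.1 treated. Both treated arrays lay above both untreated arrays, and the log2 ratio was 0.90 at date 1 and 1.06 at date 2. The group means were 1133 ± 355 and 2290 ± 871 (SD, n = 2), and the fitted log2 change was 0.98 ± 0.19 (adjusted p = 0.00852). The SDs are wide because both groups were higher at date 2. Without date as a block the call was lost (adjusted p = 0.177). It was also lost without untreated replicate 1 (0.66), untreated replicate 2 (1.30) or LGG replicate 2 (0.59, adjusted p = 0.292), and kept without LGG replicate 1 (1.37, adjusted p = 0.0228).

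Nsdhl, which works with Msmo1 in the same demethylation, measured 653.9 and 907.4 untreated and 683.1 and 797.1 treated, a log2 change of -0.06 ± 0.22 (adjusted p = 0.917). Hsd17b7, the ketoreductase of that step, measured 191.5 and 312.7 untreated and 193.7 and 232.0 treated (-0.19 ± 0.26, adjusted p = 0.744), and its dimmer probe set gave -0.43. Neither partner of Msmo1 in the demethylation thus passed. Groups overlapped for Nsdhl and for the brightest set of Hsd17b7. The dimmer set of Hsd17b7 did not overlap, with 110.9 and 135.6 untreated against 64.3 and 110.0 treated. Ebp, an isomerase, measured 1000.7 and 999.2 untreated and 918.8 and 1360.2 treated, with opposite signs at the dates (-0.12 and 0.44). Sc5d, the desaturase that precedes Dhcr7, measured 792.6 and 1297.0 untreated and 1173.4 and 1670.4 treated. It was higher with treatment at each date, but its groups overlapped and the log2 change was 0.46 ± 0.20 (adjusted p = 0.219), with 0.11 for Sc5d when untreated replicate 1 was left out and 0.80 when untreated replicate 2 was. A dimmer probe set of Sc5d had a change of -0.19, and Sc5d was the 1 gene of 9 with several tested probe sets whose sets differed in sign.

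Dhcr7 reduces dehydrocholesterol to cholesterol, and at the same point decides how much precursor is kept for vitamin D. It measured 312.4 and 366.4 on the untreated arrays of dates 1 and 2 and 1029.5 and 1218.5 on the treated arrays. Treated values stood far above untreated ones, and the ratio was 3.12-fold at date 1 and 3.18-fold at date 2. The means were 339 ± 38.2 and 1124 ± 134 (SD, n = 2), with a log2 change of 1.66 ± 0.22 (adjusted p = 0.000841). With the date block left out Dhcr7 still passed (adjusted p = 0.027). With 1 array left out its log2 change lay between 1.54 and 1.77, although the call was lost without untreated replicate 1 or 2 (adjusted p = 0.322 and 0.373), settings in which 0 genes passed in the whole table. It has 1 probe set, so a second set of probes does not bear on the value.

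**Figure D3:**
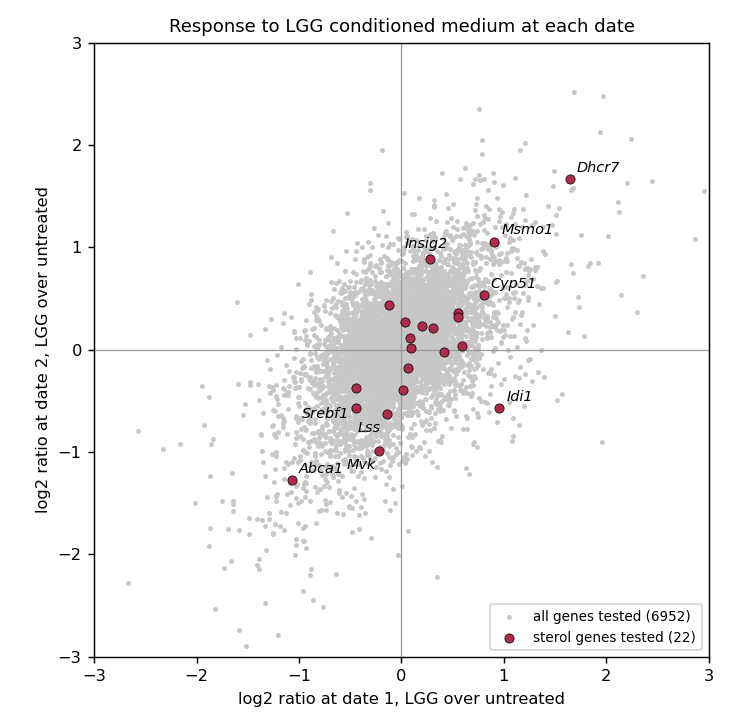
Log2 ratio of LGG over untreated at date 1 (x axis) against date 2 (y axis) for all 6952 genes tested (grey, 9 outside the axes) and the 22 sterol genes (red). Dhcr7 and Msmo1 lie at the upper right, Abca1 at the lower left and Idi1 at the lower right, with the other sterol genes among the bulk of genes.

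Of the SREBP control genes 3 were tested and 0 passed (limma). Srebf1 and Insig2, 2 of the 3, had an unadjusted p under 0.05 (limma), as had 1414 of all 6952 genes. Srebf1, which encodes the SREBP form tied to fatty acid synthesis, measured 1038.0 and 1455.5 untreated and 755.6 and 975.6 treated. Both treated values lay below both untreated ones, with a log2 change of -0.51 ± 0.21 that did not pass (adjusted p = 0.181). Srebf2, the form tied to cholesterol synthesis, measured 972.2 and 974.0 untreated and 1037.4 and 988.3 treated, a log2 change of 0.06 ± 0.21 (adjusted p = 0.919). Its treated arrays were above the untreated ones by little, and its second probe set gave 0.02. Scap, the escort of the SREBP proteins, was seen at date 2 only and measured 1210.9 untreated and 690.3 treated, a log2 ratio of -0.79 with no replicate check. Insig2, which retains SCAP in the endoplasmic reticulum and is the INSIG gene that does not depend on SREBP, had 3 probe sets. The brightest measured 468.5 and 490.5 untreated and 572.8 and 931.4 treated. Treated arrays were above untreated ones in the brightest and in the next set of Insig2, with log2 changes of 0.58 ± 0.24 and 0.60 ± 0.23 (adjusted p = 0.182 and 0.155). The dimmest set overlapped, with ratios of 1.05 and -0.17. Insig2 passed without LGG replicate 1 (0.92, adjusted p = 0.0441), but had a log2 change of 0.25 when LGG replicate 2 was left out.

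Genes that move cholesterol inside the cell showed small differences, and 0 of 3 passed (limma; 0 at an unadjusted p under 0.05). Npc2, the soluble lysosomal carrier that receives cholesterol first, measured 7222.5 and 7796.4 untreated and 8331.2 and 9167.2 treated. Treated arrays were above untreated ones, by a log2 change of 0.22 ± 0.12 (adjusted p = 0.331), and the other Npc2 set gave 0.26. Npc1, the lysosomal membrane protein that passes cholesterol on, measured 122.5 and 162.0 untreated and 125.9 and 200.2 treated, with overlapping groups (0.15 ± 0.27, adjusted p = 0.812). Stard4, a cytosolic sterol carrier, measured 408.8 and 582.3 untreated and 554.6 and 575.0 treated, again with overlap (0.20 ± 0.23, adjusted p = 0.694).

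In the efflux arm Abca1 was lower in every probe set at both dates. Its brightest set measured 715.1 and 710.8 untreated and 326.5 and 278.9 treated, and the groups stood well apart. The means were 713 ± 3.04 and 303 ± 33.7 (SD, n = 2) and the log2 change was -1.17 ± 0.23 (adjusted p = 0.00947). Without date as a block the adjusted p was 0.0587, while the value lay between -1.28 and -1.07 with 1 array left out. The next set measured 280.3 and 214.1 untreated and 72.2 and 173.8 treated, uneven between dates and not passed (-0.96 ± 0.32, adjusted p = 0.103). The third set of Abca1 was too dim to test and measured 76.0 and 91.9 untreated and 2.9 and 49.8 treated. Abcg1, the partner pump that hands cholesterol to HDL, went the other way at low intensity, with 62.7 and 73.8 untreated and 130.9 and 99.3 treated. Both treated values were above both untreated ones, with log2 ratios of 0.83 and 0.33, but Abcg1 was under the filter and was not tested.

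**Figure D4:**
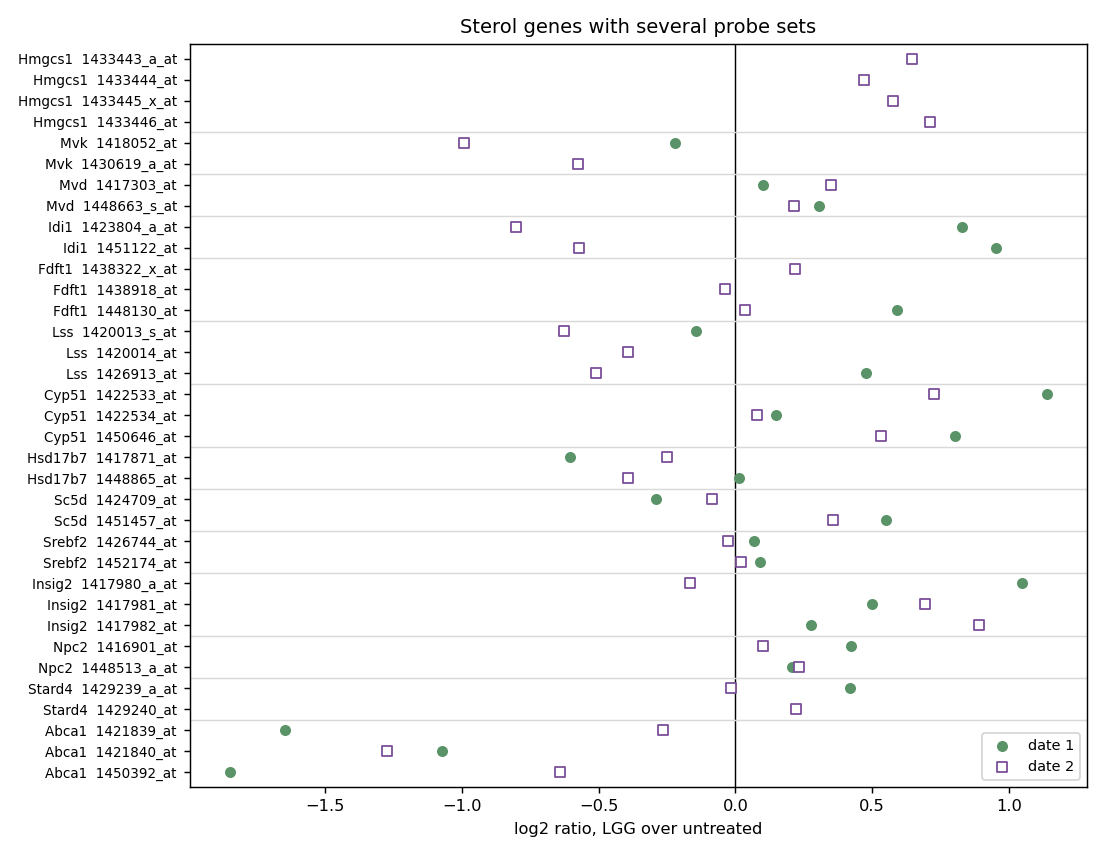
Log2 ratio of LGG over untreated at date 1 (circles) and date 2 (squares) for 35 probe sets of 14 sterol genes with several sets, leaving out sets whose date 2 mean was under 40. The sets of Hmgcs1, Cyp51 and Abca1 keep 1 sign, and both sets of Idi1 lie above 0 at date 1 and below 0 at date 2.

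Other genes of sterol handling were counted from a list of 37, of which 19 were tested, with 2 higher, 0 lower and a median log2 change of 0.06. Over all genes 3.01% passed as higher and 3.5% as lower, with a median of 0.03. Scarb1, a receptor for HDL that takes up cholesteryl ester, measured 1361.2 and 1631.3 untreated and 2036.4 and 2877.8 treated (log2 change 0.69 ± 0.18, adjusted p = 0.0389). Pgrmc1, a heme protein that binds the demethylase made by Cyp51, measured 2393.7 and 2264.3 untreated and 3191.5 and 4123.1 treated (0.63 ± 0.17, adjusted p = 0.0441). All treated values of Scarb1 and Pgrmc1 were above the untreated ones. Both calls were lost under quantile normalization (adjusted p = 0.0511 and 0.0541), with arrays scaled to a common median, under either other filter, without date as a block and without either untreated array or LGG replicate 2. Of 14 fatty acid genes known as SREBP-1 targets 13 were tested, and 0 rose and 2 fell, with a median of -0.09. The shares over all genes are again 3.01% and 3.5%. Fads2, a fatty acid desaturase, fell from a mean of 2003 ± 471 to 1094 ± 371 (SD, n = 2; log2 change -0.88 ± 0.19, adjusted p = 0.0163), and Mid1ip1, which helps acetyl-CoA carboxylase to polymerise, fell from 5395 ± 37.1 to 3235 ± 530 (SD, n = 2; -0.74 ± 0.15, adjusted p = 0.0113). Neither passed without date as a block, with dim probe sets kept in, or without either untreated array. Fads2 lost its call without LGG replicate 1 (-0.53) and Mid1ip1 without LGG replicate 2 (-0.58).

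The array dates also differed for sterol genes, a pattern looked at after the values were seen. Of the 22 genes 16 were higher at date 2 than at date 1 in both groups and 2 were lower in both, against 28.9% and 28.7% of all genes. The median log2 difference, date 2 minus date 1, was 0.47 in the untreated and 0.24 in the treated arrays for the 22 genes, and -0.03 and 0.04 over all genes. Msmo1 differed by 0.64 in the untreated and 0.79 in the treated arrays, Fdps by 0.74 and 0.77, Sc5d by 0.69 and 0.50 and Sqle by 0.67 and 0.44. Idi1 differed by 0.85 in the untreated and -0.68 in the treated arrays. Singly, 0 of the 22 passed for the date term of the fit, against 0.388% of all genes, and the lowest adjusted p was 0.106, for Fdps (0.76 ± 0.18). What differed between the dates (culture, labelling or scan) is not given.

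**Figure D5:**
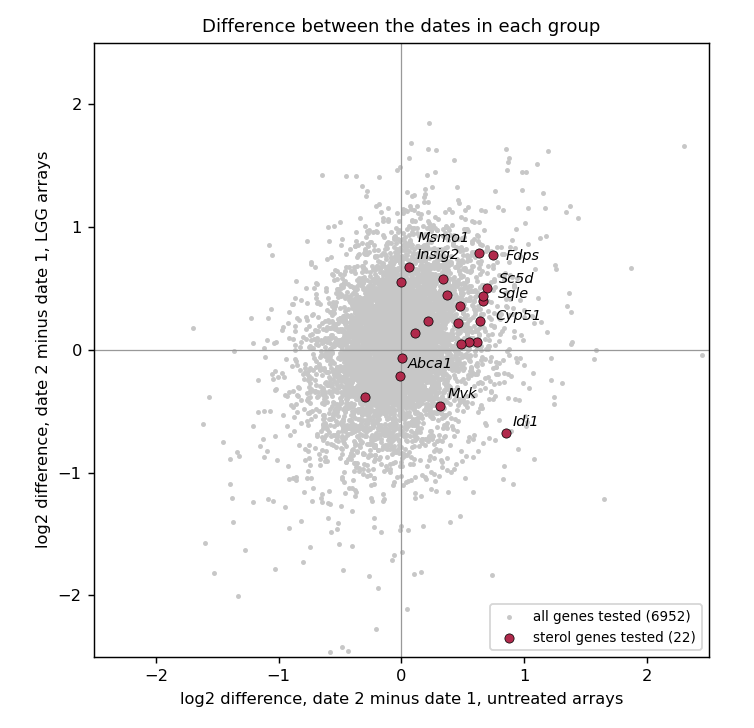
Log2 difference between date 2 and date 1 in the untreated arrays (x axis) and in the LGG arrays (y axis) for all 6952 genes tested (grey, 3 outside the axes) and the 22 sterol genes (red). Most sterol genes lie right of 0, with medians of 0.47 (x) and 0.24 (y), and Idi1 lies at the lower right.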

How the data were processed

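Total RNA of YAMC cells was profiled on 4 arrays, 2 untreated and 2 LGG. The authors deposited linear intensity values, 1 column per array; software, scaling and filters are not given in the sources used here, and both arrays of date 1 lack the same 6307 of 22690 probe sets. Per the labels, groups and dates come from the array titles, and the dates pair the arrays. As a check, the date 2 minus date 1 differences of the 2 groups had a correlation of 0.271 across probe sets.

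Values were used as log2(intensity + 25.2), the pseudocount being 5% of the geometric mean of the arrays' trimmed means (2% off each end). Probe sets with values on all arrays and a mean of at least 20% of it, 101, were tested (10333, for 6952 genes), and a gene was represented by its brightest set. limma 3.58.1 in R 4.3.3 fitted group and date across all of them, with eBayes' trend option, two-sided, with p-values adjusted by Benjamini-Hochberg and a threshold of 0.05. Alternatives were no date block, quantile and median scaling, other pseudocounts, filters and probe set rules, and each array left out, which needs the fit without the block. The fit was tested on simulated data. Members, lists and tests were chosen with earlier results of these data known. The text names every member with a probe set and, of the other lists, the genes that passed. Symbols came from the platform annotation and promoters from RefSeq (GRCm38.p6), matched by symbol. Figures were drawn with matplotlib 3.10.9.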

Additional observations from a re-analysis of the deposited data

Results flagged for a closer look

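Idi1 changed sign between the dates in both of its probe sets, with log2 ratios of LGG over untreated of 0.83 and 0.95 at date 1 and -0.80 and -0.57 at date 2. With 1 array per group at each date, this difference was not tested. Of the sterol probe sets above the filter 9 have values at date 2 alone, outside the comparison. The log2 ratios of LGG over untreated were 0.64, 0.47, 0.58 and 0.71 for the 4 sets of Hmgcs1, 0.43 for Pmvk, 0.22 for Fdft1 and 0.22 for Stard4, all higher on the treated array, while Scap (-0.79) and the second set of Mvk (-0.57) were lower.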

How the results depend on the processing

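With all arrays and the date block, the log2 change of each of the 22 sterol genes kept its sign under both scalings, both pseudocounts and the mean over probe sets. For a gene with 1 tested probe set that mean is the same value, so its sign could not turn there. The filters leave the log2 change of a gene as it is and bear only on its SE and p. Under the filter of 50%, 19 sterol genes were tested (Tm7sf2, Hsd17b7 and Npc1 were not). Without date as a replicate block 61 genes passed in the whole table, against 452, and 1 sterol gene, 0 of the other sterol list and 0 fatty acid genes. With a common median 295 genes passed, and 0 of the other sterol list; under quantile normalization, or with the filter at 50% of the trimmed mean, that list also had 0, and 1 with a pseudocount of 1. With no filter on dim probe sets 0 genes passed in the whole table or any list (1525 at an unadjusted p under 0.05 by limma, 8 of them sterol genes), where 10782 genes were tested; the cause was not tested. With the probe sets of a gene averaged 948 genes passed, 4 sterol genes, 6 of the other sterol list and 4 fatty acid genes. With 1 array left out the counts ran from 0 to 428, 0 to 4, 0 to 3 and 0 to 2; without untreated replicate 1 or 2 they were 0 (2 and 4 sterol genes at an unadjusted p under 0.05), and without LGG replicate 2 187 genes passed. The same refits turned the sign of Idi1 (-0.23 to 0.61), Fdps (-0.29 to 0.48), Nsdhl (-0.29 to 0.17), Hsd17b7 (-0.51 to 0.13), Ebp (-0.12 to 0.43), Npc1 (-0.14 to 0.44) and Stard4 (-0.04 to 0.44), none of which passed. Without a sign change, Fdft1 ran from 0.00 to 0.62, Mvd from 0.07 to 0.45, Lss from -0.66 to -0.11, Tm7sf2 from -0.63 to -0.19, Mvk from -0.83 to -0.38 and Srebf1 from -0.74 to -0.27. A refit with 1 array left out assumes that the lone array varies like the other group, and with the date block no degree of freedom is left for it. Without the block, part of the difference between the dates enters the change, so a turned sign need not be an unstable response to LGG. Fdps, whose sign turned, had log2 ratios of 0.08 and 0.11 within the dates and a date term of 0.76. No detection calls were used, so what signal over background limits cannot be given.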

Other observations

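Genes with several probe sets outside the sterol group, looked at after their values were seen, gave calls that depend on the set. Scd2, a stearoyl-CoA desaturase, did not pass through its brightest set (log2 change -0.46 ± 0.14), which measured 5120.8 and 6405.5 untreated and 3583.8 and 4796.7 treated. Its other sets fell by 1.02 and 1.61 on the log2 scale (limma, adjusted p = 0.00773 and 0.0148), calls that were lost when the date block was left out (adjusted p = 0.241 and 0.279). The set of Scd2 with the largest change measured 1596.4 and 2065.2 untreated and 235.6 and 1370.1 treated, so its log2 ratio was -2.64 at date 1 and -0.58 at date 2. Me1, malic enzyme, which supplies NADPH for lipid synthesis, rose through its dimmer set (0.89 ± 0.23, adjusted p = 0.0381, and 0.118 without date as a block) and did not pass through the brighter one (0.59 ± 0.22).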
